A study of Mus musculus with 12 samples.

Results

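The transcription factors that give the intestinal epithelium its identity were followed as 8 genes, Cdx1, Cdx2, Hnf4a, Hnf4g, Klf4, Klf5, Elf3 and Vdr, picked by gene symbol from the 38087 genes with an Ensembl identifier. All 8 were found in every library and all 8 passed the filter on low counts. The samples were 12 messenger RNA libraries of mouse colonic mucosa, 6 from wild type mice and 6 from Sgo1-/+ mice, heterozygous for the gene of shugoshin 1, a guardian of sister chromatid cohesion, and the series set out to describe how chromosome instability acts on the colon. Mice of both genotypes had received azoxymethane, an alkylating colon carcinogen, at 4 mg/kg 2 times a week from 8 to 12 weeks of age, and the tissue was taken at 9 months. There was no group without the carcinogen, so every value below belongs to carcinogen-treated mucosa. Strain and sex were not given in the sources used here. Nothing in the labels ties each library to its own mouse, and p-values therefore speak only of the spread between these samples, which may be technical.

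CDX1 and CDX2 are homeobox proteins that set intestinal against gastric fate in the embryo and keep intestinal genes on in the adult. HNF4A and HNF4G are nuclear receptors that hold open the enhancers of enterocyte genes, many of them for lipid handling and the brush border. KLF4 and KLF5 are zinc finger proteins with opposed places in the colonic crypt, KLF5 in dividing cells of the lower crypt and KLF4 in differentiated cells near the surface and in goblet cells, while ELF3 is an epithelial ETS factor and VDR is the vitamin D receptor, which binds DNA as a partner of RXR.

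Libraries held 5414437 to 9937114 counts. Levels are given in CPM, the count scaled to library size with TMM factors, which set the bulk of genes equal between libraries. The targeted gene Sgo1, listed as Sgol1, was at 3.65 ± 1.79 CPM in wild type against 2.33 ± 0.41 CPM in Sgo1-/+ (n = 6 per genotype, SD), on 9.50 to 71.2 counts a library, and the difference did not pass an exact two-sided permutation test (p = 0.126). Among the libraries, wild type replicates 3 and 5 together with Sgo1-/+ replicate 3 stood apart: 3 nuclear gene rows that resemble mitochondrial transcripts (Gm13340, Gm13341 and Gm11410) took 37.4% to 38.8% of their counts, against 10.4% to 22.3% in the other 9 libraries. The share averaged 25.7% ± 10.02 in wild type against 17.9% ± 10.2 in Sgo1-/+ (n = 6 per genotype, SD), which an exact two-sided permutation test did not separate (p = 0.177). Epithelial markers were abundant in every library: the 9 pan-epithelial genes summed to 6503 to 8486 CPM in wild type against 7149 to 8226 CPM in Sgo1-/+. Of other cell types, the B and plasma cell markers summed highest, to 234 to 561 CPM in wild type against 137 to 285 CPM in Sgo1-/+ libraries. Adipocyte markers summed to 2.02 to 60.1 CPM in wild type and 2.06 to 165 CPM in Sgo1-/+, with a difference in mean log2 CPM of 2.00 (exact two-sided permutation p = 0.0714, adjusted over 16 marker lists 0.208), and their part in the members' values was not tested. Red blood cell markers reached 150 CPM in a library, glia and neuron markers 67.5 CPM, fibroblast markers 42.9 CPM, smooth muscle markers 27.8 CPM, myeloid markers 24.9 CPM, endothelial markers 19.2 CPM and T and NK cell markers 16.1 CPM.

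Per length of exon, Klf4 was the highest of the 8 genes and Hnf4g the lowest. The level in CPM per kb of exon, as mean ± SD over the 12 libraries, was 360 ± 127 for Klf4 and 176 ± 40.5 for Elf3. Klf5 stood at 133 ± 23.0 CPM per kb, Hnf4a at 126 ± 9.87 and Cdx1 at 108 ± 11.2. The lower end held Vdr with 68.1 ± 9.45 CPM per kb, Cdx2 with 65.5 ± 13.8 and Hnf4g with 22.8 ± 7.16. Neighbours in this order were compared within libraries by an exact two-sided sign-flip permutation test, adjusted over the 7 neighbouring pairs. Klf5 and Hnf4a did not differ beyond their spread (adjusted exact p = 0.503), and neither did Vdr and Cdx2 (adjusted exact p = 0.503). The other 5 steps passed, with adjusted exact p from 0.00114 to 0.00752. The order was taken from these same libraries, so these p-values are no independent test of it. They also do not cover the choice of exon length, here all annotated exon bases of a gene. Klf4 was above Elf3 in 12 of 12 libraries and Cdx2 above Hnf4g in 12 of 12.

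**Figure D1:**
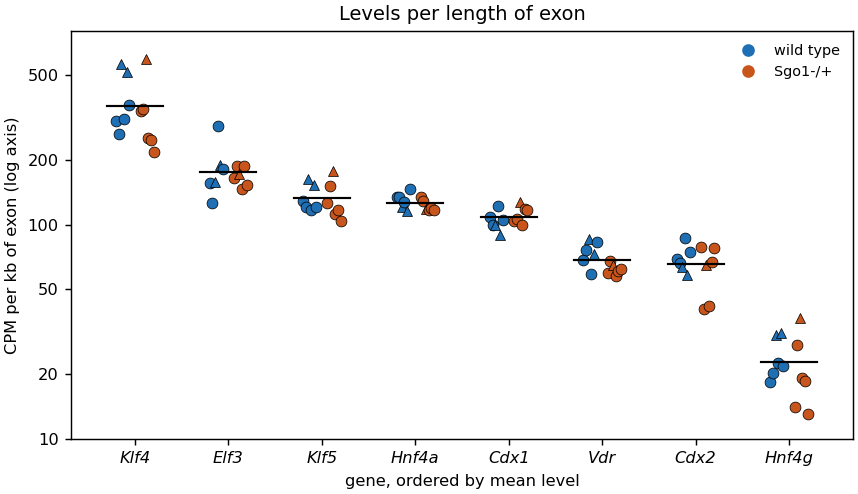
Level of each gene in CPM per kb of exon (log axis), with genes ordered along the x axis by mean level. Each point is a library (blue, wild type; orange, Sgo1-/+; triangles, the 3 libraries richest in mitochondrial-like rows) and the line is the mean over the 12 libraries, from 360 for Klf4 down to 22.8 for Hnf4g.

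The comparison of genotypes found no member called. With edgeR's quasi-likelihood test, adjusted over 13889 genes, 0 of 8 members passed an adjusted p of 0.05, where 0 genes passed in all (0%). Adjusted p-values of the members ran from 0.536 to 0.970, and the smallest over all genes was 0.280. At an unadjusted p under 0.05, 1 of 8 members passed, Vdr, lower in Sgo1-/+, against 1256 genes (9.04% of those tested), of which 599 were higher (4.31%) and 657 lower (4.73%). DESeq2 called 30 genes at an adjusted p of 0.05 (0.216%), and limma-voom 0, and no member was among them. The libraries of the 2 genotypes overlapped for every member, where 48 genes (0.346%) had groups that did not overlap. The log2 change was below 0 for 7 of 8 members, against 51.0% of all genes tested. Its median was -0.15 over the members and -0.0057 over all genes tested. With scaling by total counts alone the median of all genes was 0.31 and all 8 members were above 0. Relative to that median they ran from -0.24 for Vdr to 0.10 for Cdx1.

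**Figure D2:**
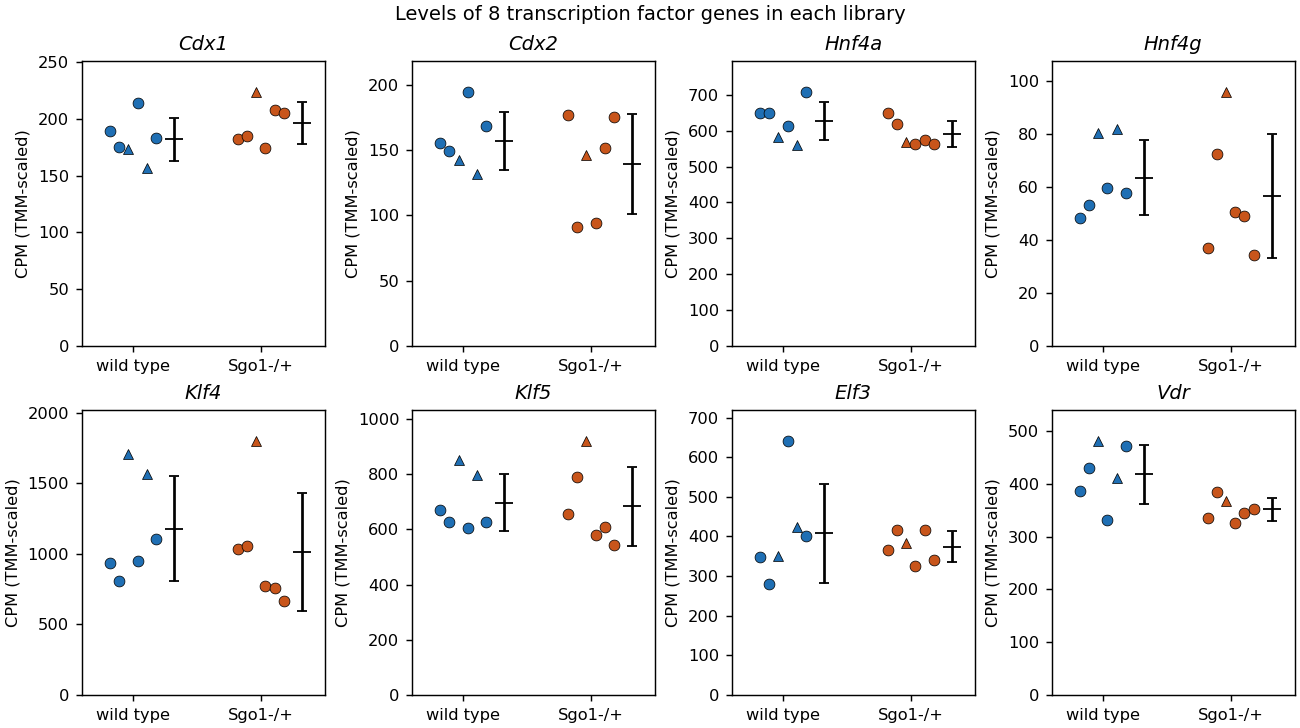
Level of each gene in CPM (y axis, from 0) in the 6 wild type (blue) and 6 Sgo1-/+ (orange) libraries, each point a library and each bar the mean ± SD. Triangles are the 3 libraries richest in mitochondrial-like rows, which are the highest for Klf4, Klf5 and Hnf4g, and the genotypes overlap for all 8 genes.

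**Figure D3:**
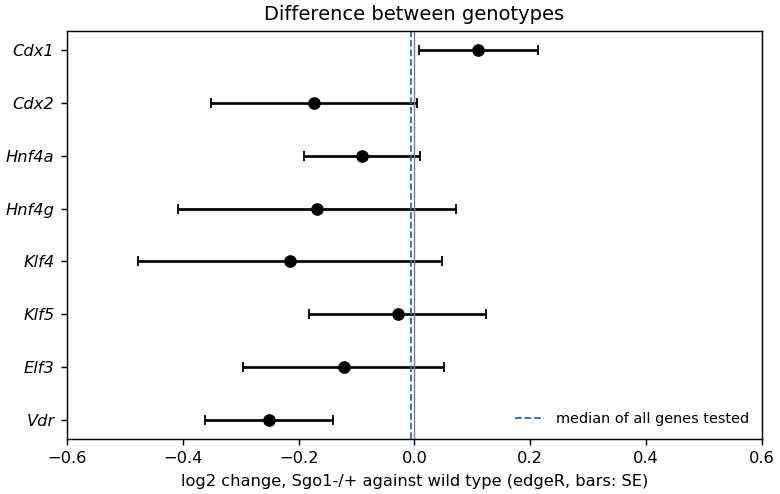
Log2 change of each gene in Sgo1-/+ against wild type (x axis), with the SE from the edgeR fit as bars. The dashed line is the median of all genes tested, and 7 of 8 genes lie below 0, from -0.25 for Vdr to -0.029 for Klf5, with Cdx1 at 0.11.

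In TMM-scaled CPM, Cdx1 of the CDX pair was even between libraries, and Cdx2 was low in a pair of Sgo1-/+ libraries. Cdx1 (ENSMUSG00000024619) lies at positions 61018862 to 61036199 of chromosome 18 in mm10, the build of the deposited files. Its lowest, median and highest levels were 157, 179 and 214 CPM in wild type against 174, 195 and 224 CPM in Sgo1-/+. Sgo1-/+ libraries differed by a log2 change of 0.11 ± 0.10 (SE; edgeR adjusted p = 0.749). Cdx2 (ENSMUSG00000029646), at positions 147300805 to 147307270 of chromosome 5, had a lowest, median and highest level of 131, 152 and 195 CPM in wild type against 91.1, 149 and 177 CPM in Sgo1-/+. Sgo1-/+ replicates 2 and 4, at 91.1 and 94.3 CPM, were the only libraries below 131 CPM. A log2 change of -0.17 ± 0.18 (SE; edgeR adjusted p = 0.771) shrank to -0.063 with Sgo1-/+ replicate 2 left out and to -0.070 with Sgo1-/+ replicate 4 left out.

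The log2 ratio of Cdx1 to Cdx2 lay in a narrow band in wild type, 0.22 ± 0.073, and was spread in Sgo1-/+, 0.54 ± 0.38 (n = 6 per genotype, SD). Its range was 0.12 to 0.28 in wild type and 0.046 to 1.02 in Sgo1-/+, with the highest values in Sgo1-/+ replicates 2 and 4. The difference in means of 0.32 did not pass (exact two-sided permutation p = 0.0736, adjusted over 3 paralog pairs 0.221). Without Sgo1-/+ replicate 1 it was 0.42 with an adjusted exact permutation p of 0.0325. That library had the lowest ratio of its genotype, so leaving it out had to raise the difference. In the other 15 alternatives the outcome against the threshold was the same as with all libraries. Hoxb13, a homeobox gene of the distal colon, was at 187 CPM in Sgo1-/+ replicate 2 and 142 CPM in Sgo1-/+ replicate 4. It was at 140.2 CPM in Sgo1-/+ replicate 5, where Cdx2 was at 152 CPM, and at 23.1 to 65.9 CPM in the other 9 libraries. The 5 distal colon markers did not differ between genotypes as a list (difference in mean log2 CPM 0.69, exact two-sided permutation p = 0.234). With their level as a covariate, an alternative added after the values were seen, the log2 change of Cdx2 was -0.078. What part the position along the colon had in the Cdx2 values was not tested further.

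**Figure D4:**
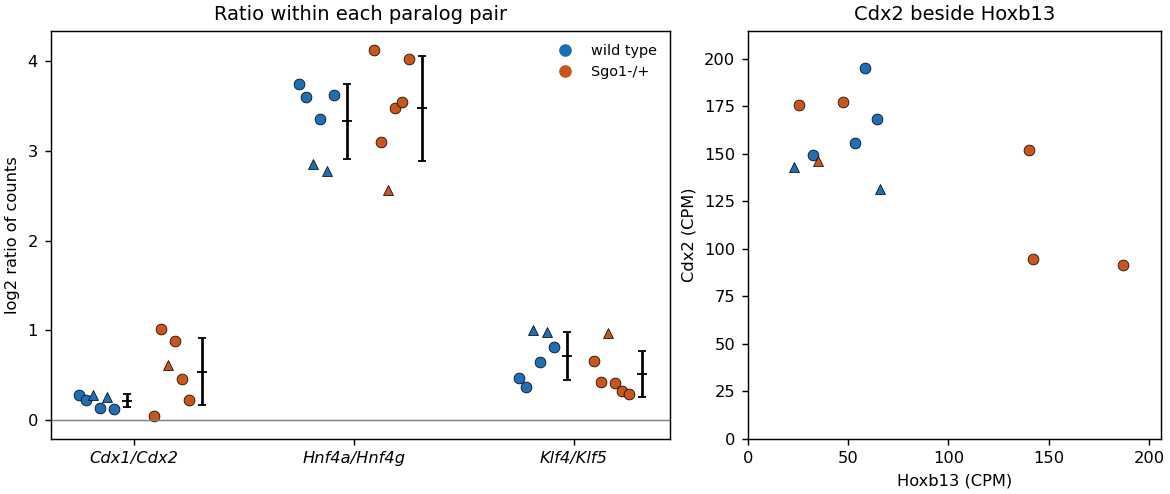
Left, log2 ratio of counts (y axis) within each paralog pair, each point a library (blue, wild type; orange, Sgo1-/+) and each bar the mean ± SD: the Cdx1/Cdx2 ratio is tight in wild type and reaches 1.02 in Sgo1-/+. Right, Cdx2 against Hoxb13, both in CPM: the libraries with the lowest Cdx2, at 91.1 and 94.3 CPM, are among the 3 with Hoxb13 at 140.2 CPM or more, and triangles are the 3 libraries richest in mitochondrial-like rows.

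In TMM-scaled CPM the HNF4 receptors differed in how evenly they were expressed. Hnf4a (ENSMUSG00000017950), at positions 163506808 to 163572910 of chromosome 2, was the steadiest of the 8 genes in TMM-scaled CPM. Its lowest, median and highest levels were 561, 631 and 709 CPM in wild type against 562, 572 and 649 CPM in Sgo1-/+. Its highest library was 1.26 times its lowest. The SD of its log2 CPM within genotypes was 0.11, and of the 2499 genes with at least the mean level of the lowest member only 1.80% had a smaller one. This evenness depends on the scaling. By total counts alone Hnf4a ran from 363 CPM in wild type replicate 3 to 806 CPM in Sgo1-/+ replicate 1. Between genotypes its log2 change was -0.090 ± 0.10 (SE; edgeR adjusted p = 0.791). Hnf4g (ENSMUSG00000017688), at positions 3508030 to 3659775 of chromosome 3, is the minor partner in these libraries, at 48.2, 58.5 and 81.6 CPM in wild type against 34.3, 49.7 and 95.8 CPM in Sgo1-/+ (lowest, median and highest). Its SD within genotypes was 0.46, with 86.4% of the same genes below it. The log2 change was -0.17 ± 0.24 (SE; edgeR adjusted p = 0.838), and single libraries moved it: it was -0.38 with Sgo1-/+ replicate 3 left out and -0.047 with Sgo1-/+ replicate 6 left out. The log2 ratio of Hnf4a to Hnf4g was 3.33 ± 0.41 in wild type against 3.47 ± 0.58 in Sgo1-/+ libraries (n = 6 per genotype, SD; exact two-sided permutation p = 0.626). An antisense gene in the span of Hnf4a, 0610008F07Rik, was listed at no more than 0.230% of the counts of Hnf4a, and without the strand setting reads of that pair may be mixed.

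RefSeq (build GRCm38.p6) annotates a pair of starts for Hnf4a, the member steadiest in TMM-scaled CPM, which can be transcribed from either. The 250 bases before each are shown. The upstream start is preceded by chr2:163506607-163506856 and the downstream start by chr2:163546905-163547154, both on the plus strand. Capitals mark matches, on either strand, to CCNCNCCC, letters of the GC and CACCC boxes that KLF and SP proteins bind.
Hnf4a upstream start: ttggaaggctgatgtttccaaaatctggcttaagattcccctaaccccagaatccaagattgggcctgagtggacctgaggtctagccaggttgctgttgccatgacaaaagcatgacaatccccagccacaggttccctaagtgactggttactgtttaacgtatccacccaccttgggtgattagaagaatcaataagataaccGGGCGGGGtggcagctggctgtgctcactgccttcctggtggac
Hnf4a downstream start: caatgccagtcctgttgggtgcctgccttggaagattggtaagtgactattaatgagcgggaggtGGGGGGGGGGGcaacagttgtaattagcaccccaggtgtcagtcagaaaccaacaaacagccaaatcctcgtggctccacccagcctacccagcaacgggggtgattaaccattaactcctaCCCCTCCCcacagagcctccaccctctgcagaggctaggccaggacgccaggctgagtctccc
The upstream stretch held 1 match and the downstream stretch 5, of which several overlap in a run of G and CCCCTCCC stands apart from them. Counts per gene cannot say which start was used.

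In TMM-scaled CPM, Klf4 and Hnf4g varied most among the 8 genes. Klf4 did so by its SD within genotypes, and Hnf4g by the ratio of its highest to its lowest library (2.79 against 2.72 for Klf4). This order depends on the scaling. By total counts alone Klf4 ran from 857 to 1345 CPM, Hnf4g from 44.4 to 76.0 CPM and Cdx1 from 108 to 265 CPM. In TMM-scaled CPM, Klf5 and Hnf4g were high in the same libraries as Klf4. Klf4 (ENSMUSG00000003032), at positions 55527143 to 55532466 of chromosome 4, had lowest, median and highest levels of 808, 1025 and 1712 CPM in wild type against 664, 904 and 1804 CPM in Sgo1-/+. The SD within genotypes was 0.48 on the log2 scale, with 88.2% of the 2499 genes below it. Single libraries moved its log2 change of -0.21 ± 0.26 (SE; edgeR adjusted p = 0.812): leaving out Sgo1-/+ replicate 3 gave -0.46, and leaving out wild type replicate 3 gave -0.069. Klf5 (ENSMUSG00000005148), at positions 99298691 to 99313405 of chromosome 14, had 606, 649 and 853 CPM in wild type against 544, 632 and 921 CPM in Sgo1-/+. Its log2 change, -0.029 ± 0.15 (SE; edgeR adjusted p = 0.970), was the smallest of the 8 and took the opposite sign in 5 of the 12 fits without 1 library. The log2 ratio of Klf4 to Klf5 was 0.71 ± 0.26 in wild type against 0.51 ± 0.26 in Sgo1-/+ libraries (n = 6 per genotype, SD; difference -0.20, exact two-sided permutation p = 0.206, adjusted 0.308).

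In TMM-scaled CPM the 3 libraries richest in mitochondrial-like rows were the 3 highest for each of these genes. Klf4 was at 1571 to 1804 CPM in them and at 664 to 1103 CPM in the other 9. Klf5 was at 796 to 921 CPM against 544 to 789 CPM, and Hnf4g at 80.2 to 95.8 CPM against 34.3 to 72.1 CPM. The remaining members showed no such gap: Hnf4a was at 561 to 583 CPM in the 3 libraries and 562 to 709 CPM in the other 9, and Cdx1 at 157 to 224 CPM against 174 to 214 CPM. Within the 9 other libraries Klf4 also stood with the share (Pearson r = 0.78, permutation p = 0.0191; Spearman rho = 0.72, permutation p = 0.0368), but after adjustment over the 8 members neither passed (adjusted permutation p = 0.132 and 0.205). Without the 2 of these libraries farthest from the median share, r for Klf4 was 0.71. The relation was not particular to Klf4. Over the 9 libraries Hnf4g had r = 0.71 with the share (permutation p = 0.0330, adjusted 0.132). Hnf4a had r = 0.67 (permutation p = 0.0559, adjusted 0.149), and the remaining members had r from 0.034 for Cdx1 to 0.54 for Klf5. With the share as a covariate the log2 change between genotypes was 0.12 for Klf4, 0.14 for Klf5 and 0.084 for Hnf4g, in place of -0.21, -0.029 and -0.17. The part of RNA quality or of library preparation in these levels was not tested.

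Over the 28 pairs of members, TMM-scaled levels were correlated across the 12 libraries. By Pearson r, 3 pairs passed an adjusted permutation p of 0.05, and by Spearman rho 2. The 3 were those among Klf4, Klf5 and Hnf4g. Because the 3 libraries stand apart, the relation is given over the other 9. There Klf4 and Klf5 had r = 0.72 and rho = 0.72 (permutation p of r = 0.0199, adjusted 0.179). Hnf4g had r = 0.51 and rho = 0.58 with Klf4 (permutation p of r = 0.163) and r = 0.60 and rho = 0.28 with Klf5 (permutation p of r = 0.0869). No pair passed over these 9. The other 25 pairs had r from -0.47 to 0.49 over the 12 libraries. Over the 9, some of them were above Klf4 and Klf5. Hnf4a had r = 0.79 with Klf4 (permutation p = 0.0125) and r = 0.76 with Vdr (permutation p = 0.0158), adjusted 0.179 for each.

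**Figure D5:**
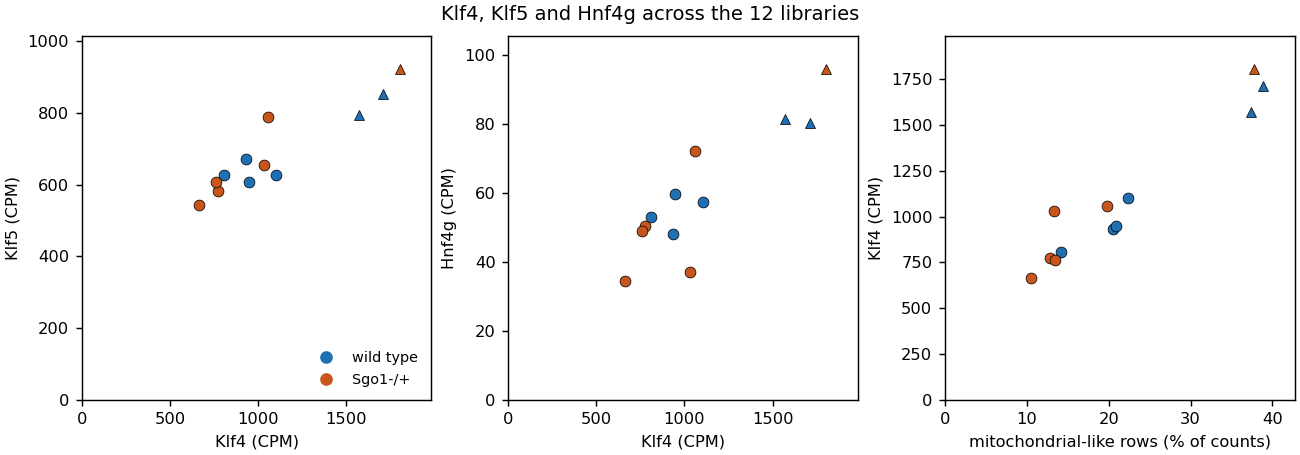
Klf5 against Klf4 (left) and Hnf4g against Klf4 (middle), in CPM, and Klf4 in CPM against the percent of counts in mitochondrial-like rows (right), each point a library (blue, wild type; orange, Sgo1-/+). The triangles, the 3 libraries richest in these rows, are the highest for all 3 genes, at 1571 to 1804 CPM for Klf4.

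The 250 bases before the RefSeq start of Klf4 are chr4:55532476-55532725 on the minus strand of GRCm38.p6. They are shown because this gene had the largest SD within genotypes of the 8 in TMM-scaled CPM. Its promoter is also rich in the letters its own protein family binds. Capitals mark CCNCNCCC on either strand, as above.
Klf4: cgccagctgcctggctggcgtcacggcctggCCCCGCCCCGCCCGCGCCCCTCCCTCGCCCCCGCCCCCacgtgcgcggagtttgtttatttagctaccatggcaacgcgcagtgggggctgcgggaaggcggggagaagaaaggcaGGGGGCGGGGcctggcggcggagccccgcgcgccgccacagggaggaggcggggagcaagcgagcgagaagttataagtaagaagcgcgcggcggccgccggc
There were 9 matches, many of them overlapping, and the stretch was 74.0% G and C, more than 95.1% of promoters of this length. Across 32851 RefSeq promoters 45.9% held at least 1 match, and 6 of the 6 stretches found for 5 members did (Elf3, both of Hnf4a, Klf4, Cdx2 and Vdr). The letters CAAAGNNCA of HNF4 sites (in 5.49% of promoters), TTTATNG of CDX sites (9.81%), GGAAGT of ETS sites (19.7%), AGGTCA of nuclear receptor sites (14.02%) and TATAAA (12.4%) were searched on both strands and matched in 0 of the 6. Matches of TTTATNG and TATAAA can overlap on opposite strands. A match describes letters and not binding.

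Elf3 (ENSMUSG00000003051), at positions 135253574 to 135258472 of chromosome 1, had lowest, median and highest levels of 280, 377 and 642 CPM in wild type against 326, 374 and 417 CPM in Sgo1-/+. A single library, wild type replicate 4 at 642 CPM, set its spread, since the other 11 lay between 280 and 423 CPM. Its log2 change of -0.12 ± 0.17 (SE; edgeR adjusted p = 0.838) became 0.058 without that library. The same library held 6931 CPM of Reg3b and 1110 CPM of Reg3g, antimicrobial lectins that epithelium makes on contact with bacteria, against 19.5 to 422 CPM and 5.87 to 92.3 CPM in the other 11. Whether these levels are linked was not tested. A noncoding gene on the opposite strand, AC130277.1, overlaps Elf3 and had 1.39% to 3.29% of its counts. How strand was used in counting was not given in the sources used here, so reads of that pair may be mixed.

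Vdr (ENSMUSG00000022479), at positions 97854425 to 97910630 of chromosome 15, came closest to a difference. Its lowest, median and highest levels were 331, 420 and 481 CPM in wild type against 325, 348 and 384 CPM in Sgo1-/+. All 6 Sgo1-/+ libraries were below the wild type median, and 1 was below every wild type library. Means were 418 ± 56.0 CPM in wild type against 351 ± 21.6 CPM in Sgo1-/+ (n = 6 per genotype, SD). The log2 change was -0.25 ± 0.11 (SE), with an unadjusted edgeR p of 0.0401 and an adjusted p of 0.536. DESeq2 gave an adjusted p of 0.357 and limma-voom 0.469. Leaving out 1 library at a time, the unadjusted edgeR p was under 0.05 in 5 of 12 fits, with log2 changes from -0.31 to -0.20. Within the libraries whose column names carry no suffix the difference in mean log2 CPM was -0.22 (4 against 4), and within those with the suffix it was -0.29 (2 against 2). In the mucosa as a whole a lower level in each cell and fewer cells that express the gene cannot be told apart. Beside it, all 10 surface colonocyte markers were lower in Sgo1-/+ (difference in mean log2 CPM -0.26, exact two-sided permutation p = 0.0346, adjusted over 16 marker lists 0.185). All 10 crypt and proliferation markers were higher (0.50, exact permutation p = 0.0281, adjusted 0.185). Of all genes tested, 51.0% were lower. An unadjusted p under 0.05 was found for 2 of the 10 surface markers and 6 of the 10 crypt markers, against 9.04% of all genes tested. None of the 16 lists passed after adjustment, and the part of cell makeup in the level of Vdr was not tested.

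The 250 bases before the RefSeq start of Vdr, chr15:97908297-97908546 on the minus strand of GRCm38.p6, are shown for the member with the lowest p, with capitals as above.
Vdr: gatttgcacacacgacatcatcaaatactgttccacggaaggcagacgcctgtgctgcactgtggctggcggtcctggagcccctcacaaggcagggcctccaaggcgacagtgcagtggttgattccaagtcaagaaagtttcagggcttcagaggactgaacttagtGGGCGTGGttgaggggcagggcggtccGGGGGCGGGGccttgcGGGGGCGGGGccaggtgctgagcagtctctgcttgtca
There were 5 matches, some overlapping, in a stretch of 61.2% G and C. The stretch lies inside the span of Vdr given above, whose upstream end on the minus strand is position 97910630. Counts per gene cannot say which start was used.

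RXRA is the partner with which VDR binds DNA. Rxra had lowest, median and highest levels of 76.5, 84.1 and 90.1 CPM in wild type against 66.9, 70.6 and 85.9 CPM in Sgo1-/+, and 5 of 6 Sgo1-/+ libraries were below every wild type library. Its log2 change was -0.21 ± 0.090 (SE; edgeR adjusted p = 0.536), and its unadjusted p stayed under 0.05 in 4 of 12 fits without 1 library. Of 15 genes of vitamin D signalling and calcium handling, 8 were tested, 2 were higher and 6 lower, where 51.0% of all genes tested were lower. Of these 8, 1 (Rxra) had an unadjusted p under 0.05, where 9.04% of all genes tested did. Their log2 changes had a median of -0.17. The calcium pump gene Atp2b1 was at 565 ± 81.0 CPM in wild type against 524 ± 127 CPM in Sgo1-/+ (n = 6 per genotype, SD), and the claudin gene Cldn2 at 75.1 ± 44.3 and 91.2 ± 41.2 CPM. The 7 genes too low to test included Cyp24a1, which breaks down active vitamin D, with at most 3.06 counts in a library, and the calcium channel gene Trpv6 with at most 40 counts.

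Among other transcription factors of the intestine, Foxa2 was higher and Nr1h4 lower in Sgo1-/+ at an unadjusted p under 0.05, and none passed an adjusted p of 0.05. Of 23 such genes 21 were tested, 7 higher and 14 lower, and the median of their log2 changes was -0.11. At an unadjusted edgeR p under 0.05 there were 1 higher and 3 lower, where 9.04% of all genes passed. Foxa2, a forkhead factor of secretory cells, was at 8.70 ± 2.62 CPM in wild type against 15.5 ± 3.59 CPM in Sgo1-/+ (log2 change 0.84 ± 0.22, edgeR adjusted p = 0.491), and 5 of 6 Sgo1-/+ libraries were above every wild type library. Nr1h4, the bile acid receptor FXR, was at 98.4 ± 23.3 and 63.8 ± 11.5 CPM (log2 change -0.63 ± 0.17, adjusted p = 0.491). Prdm1, the repressor BLIMP1 of both epithelium and plasma cells, had a log2 change of -0.999 ± 0.413 and Creb3l3, a factor of lipid metabolism, of -0.88 ± 0.36 (adjusted p = 0.530 for each). In fits without 1 library, Foxa2 and Nr1h4 had an unadjusted p under 0.05 in 12 of 12. Prdm1 and Creb3l3 did so in 7 of 12 each. Leaving out wild type replicate 3, which is among the 3 libraries rich in mitochondrial-like rows, gave -0.58 for Prdm1 and -0.51 for Creb3l3 and ended the unadjusted call of each. Leaving out all 3 gave -1.06 for Prdm1, with an unadjusted edgeR p of 0.000828, and -0.34 for Creb3l3, with an unadjusted edgeR p of 0.311. The B and plasma cell markers were lower too, by 0.48 in mean log2 CPM (exact two-sided permutation p = 0.0216, adjusted 0.185), and their part in the level of Prdm1 was not tested. Among the most abundant of the list were Ehf, an ETS relative of Elf3, with a log2 change of 0.28 ± 0.15, and Tcf7l2, which encodes a Wnt effector, with -0.40 ± 0.33. Gata4, a factor of the small intestine above the ileum, had at most 14 counts in a library.

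Family relatives were split evenly, with 8 higher and 8 lower among the 16 of 23 that were tested and a median of -0.023 for their log2 changes. Klf11 was the only 1 of these at an unadjusted p under 0.05, where 9.04% of all genes tested passed. It was at 10.7 ± 2.44 CPM in wild type against 8.25 ± 0.86 CPM in Sgo1-/+ (n = 6 per genotype, SD; log2 change -0.37 ± 0.17, edgeR adjusted p = 0.548). Its unadjusted p stayed under 0.05 in 2 of 12 fits without 1 library. Klf6, the most abundant relative, was at 468 ± 98.4 and 361 ± 138 CPM, with an adjusted p of 0.625 by edgeR. Klf3 was at 218 ± 30.0 and 230 ± 48.4 CPM.

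Reported targets of the members held no gene past an adjusted p of 0.05. Of all genes tested, 9.04% had an unadjusted p under 0.05 and 51.0% were lower in Sgo1-/+. Among CDX targets 10 of 11 were tested, 3 higher and 7 lower, and the median of their log2 changes was -0.17. The keratin gene Krt20, a marker of mature surface cells that is in the CDX list and in the KLF and ELF3 list, was at 1113 ± 202 CPM in wild type against 828 ± 168 CPM in Sgo1-/+ (n = 6 per genotype, SD; log2 change -0.43 ± 0.16, edgeR adjusted p = 0.527). It had an unadjusted p under 0.05 in 7 of 12 fits without 1 library. The mucin gene Muc2 had a log2 change of 0.18 ± 0.30 and the galectin gene Lgals4 of -0.12 ± 0.12. Of the HNF4 targets 9 of 14 were tested, 6 higher and 3 lower with a median of 0.091, and 0 had an unadjusted p under 0.05. Fabp2, for a fatty acid binding protein, had a log2 change of -0.47 ± 0.31, Apob of -0.18 ± 0.18 and Cpt1a of 0.082 ± 0.21. The 5 HNF4 targets too low to test, Apoa1, Apoa4, Apoc3, Fabp1 and Treh, are genes of small intestinal enterocytes and had mean levels of at most 1.43 CPM. Of the 9 KLF and ELF3 targets 3 were higher and 6 lower, with a median of -0.14. Birc5, which encodes the mitotic protein survivin, was at 13.6 ± 2.77 and 19.4 ± 4.91 CPM (log2 change 0.50 ± 0.19, edgeR adjusted p = 0.527). Its unadjusted p was under 0.05 in 12 of 12 fits without 1 library. Without the 3 rich libraries its log2 change was 0.36 and its unadjusted call was lost. Ctnnb1 had a log2 change of -0.14 ± 0.10 and Cdkn1a of -0.24 ± 0.18.

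Of markers of other regional identities all but Sox2 were too low to test. Of 10 genes of stomach, oesophagus, lung and liver only Sox2, which enteric glia also express, passed the filter, at 4.15 ± 1.66 CPM in wild type against 2.17 ± 0.71 CPM in Sgo1-/+ (n = 6 per genotype, SD; log2 change -0.93 ± 0.32, edgeR adjusted p = 0.524). The glia and neuron markers were lower beside it, by 1.03 in mean log2 CPM (exact two-sided permutation p = 0.0844, adjusted 0.208), with both tested genes lower, and their part in the level of Sox2 was not tested. Gkn2 and Tff1 had 0 counts in all 12 libraries, and the other 7 had mean levels of at most 1.14 CPM.

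The gene most like each member in its log2 CPM over the 12 libraries was picked from 9217 genes by the highest Pearson r, so the values are a description. These were Cdk5 for Cdx1 (r = 0.90), Lrp12 for Cdx2 (0.88), Ripk1 for Hnf4a (0.88), Cstf3 for Hnf4g (0.96) and Pip5k1b for Klf4 (0.98). For Klf5 it was Rpl21 (0.99), which has many near-identical copies and is uncertain, for Elf3 l7Rn6 (0.90) and for Vdr Rph3al (0.89). The 3 libraries that stand apart are among the points in each.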

How the data were processed

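Messenger RNA of 12 colonic mucosa samples was sequenced on an Illumina MiSeq, per the labels' protocols. Each file's raw column gives expected counts, as the authors deposited them (69.6% of values above 0 were not whole, compared exactly). The second column gives deposited log2 values and entered no test; 100.0% of its values were recomputed from the raw columns within 0.001. Per the submitters' processing notes, the build was mm10 and DESeq was among the tools. Aligner, counter and strand setting were not given in the sources used here.

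Counts were rounded. The 505 of 38592 rows without an Ensembl identifier (1.79% to 5.40% of counts) were left out. No libraries were identical, and replicate pairs differed by a chi-square of at least 16.3 per degree of freedom. The test was the quasi-likelihood test of edgeR 4.0.16 under R 4.3.3 (TMM, filterByExpr with minimum count 10 and minimum total 15, prior count 2), with Benjamini-Hochberg adjustment and a threshold of 0.05. The SE was the log2 change divided by the square root of F. Single values were tested by exact permutation over 924 splits, correlations with 100000 resamples. DESeq2 1.42.0, voom in limma 3.58.1, other scalings, filters, covariates and left-out libraries were alternatives. The edgeR fit was also tested on simulated data. Mitochondrial-like rows were matched with blastn 2.17.0. Exon lengths came from GENCODE and promoters from RefSeq, which held 5 of the 8 members whose sequence could be shown here.

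Members and lists were chosen with earlier results of these data known. Named genes are Sgo1, the members, genes overlapping them, the 3 most abundant genes of each list, those at an unadjusted p under 0.05, and the most alike gene of each member. Hoxb13, Reg3b, Reg3g and genes too low to test were named after their values were seen. A gene taken by this rule is left unreported.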

Additional observations from a re-analysis of the deposited data

Results flagged for a closer look

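The level of Klf4 in Sgo1-/+ replicate 3, 1804 CPM, was far above the other 5 libraries of its genotype, which lay between 664 and 1059 CPM. The gap to the next library was 0.65 of the range of the group, over a critical value of 0.625. Among the 24 groups examined this was the only 1 picked out, and chance picks out about 1 in 20. Sgo1-/+ replicate 3 is also the library of that genotype with the highest share of mitochondrial-like rows, 37.7%. With scaling by total counts alone Klf4 was at 1345 CPM in this library and at 857 to 1283 CPM in the other 5.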

How the results depend on the processing

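No member passed an adjusted p of 0.05 under any of 25 alternatives. Over all genes 0 were called by edgeR and limma-voom, except 1 when adjusted for the mitochondrial-like share, and 30 by DESeq2. The count of members at an unadjusted p under 0.05, 1 in the fit reported, was 0 in 14 alternatives: total counts, no filter, the share, the pan-epithelial or the distal colon markers as a covariate, the libraries without the suffix, those other than the 3 richest in mitochondrial-like rows, and 7 of the 12 fits without 1 library (range 0 to 1). The cause was not tested. Pairs of members past the threshold, 3 in all, were 1 without the suffix libraries and 0 without the 3 rich libraries. Without 1 library the Cdx1/Cdx2 ratio differed by 0.23 to 0.42.

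Log2 changes took the opposite sign, none at an adjusted p under 0.05, as follows. With total counts alone, which moved all genes, they were 0.14 for Cdx2, 0.21 for Hnf4a, 0.12 for Hnf4g, 0.10 for Klf4, 0.28 for Klf5, 0.21 for Elf3, 0.069 for Vdr, 0.18 for Atp2b1, 0.11 for Rxra, 0.22 for Lgals4, 0.14 for Apob, 0.18 for Ctnnb1 and 0.092 for Cdkn1a. Adjusted for the mitochondrial-like share they were 0.084 for Hnf4g, 0.12 for Klf4, 0.14 for Klf5, 0.025 for Tcf7l2, -0.042 for Klf3, -0.37 for Cldn2, -0.13 for Muc2 and -0.22 for Cpt1a. Without the suffix libraries they were 0.0047 for Hnf4a, 0.041 for Klf5, -0.076 for Cldn2 and -0.049 for Muc2, and the pan-epithelial markers differed by 0.016. Klf5 was at 0.0048 with no filter and 0.018 without the 3 rich libraries, Cpt1a at -0.023 without them, and Atp2b1 at 0.028 with the distal markers. Without 1 library the lowest and highest values were -0.13 and 0.044 for Klf5, -0.19 and 0.058 for Elf3, -0.026 and 0.33 for Muc2, and -0.021 and 0.20 for Cpt1a.

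The replicate numbers in the labels did not pair the libraries: same-numbered libraries had correlations of deviations from -0.30 to 0.45, and 1 of 6 matched best with its own number. With the replicate block 0 genes passed an adjusted p of 0.05, 1 member had an unadjusted p under 0.05, and the log2 change of Vdr was -0.24. The libraries' depth leaves Sgo1 and the genes under about 1 CPM on few counts.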
